A study of Mus musculus with 4 samples.

Results

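The 10 genes described here serve the TAM receptors and the engulfment of dying cells, and were read in naive microglia, the brain's own macrophages. They are Mertk, Axl, Tyro3, Gas6, Pros1, Mfge8, Elmo1, Dock2, Gulp1 and Megf10, chosen by symbol, and all 10 were found among 56832 gene rows. Each of 4 RNA sequencing libraries came from microglia of female C57BL/6 mice that received no intervention, per the labels. The cells were sorted by flow cytometry as CD45 low to intermediate and CD11b positive, and their RNA was amplified with a low-input kit, per the labels' protocols. The wider study compared such microglia with myeloid cells that a GFP-labelled blood stem cell graft sends to the brain, which were not analysed here. With 1 group there is no comparison between conditions. They are numbered as replicates 1 to 4 in the labels, which do not say that each came from a separate mouse, so p-values measure only the spread between these libraries, which may be technical.

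Phagocytes find dying cells by phosphatidylserine, a lipid that healthy cells keep on the inner face of their membrane. The secreted proteins GAS6 and protein S (Pros1) bind it and bridge to the receptor tyrosine kinases TYRO3, AXL and MERTK, together called TAM. MFG-E8 bridges the same lipid to alpha v integrins. Inside the phagocyte, ELMO1 pairs with a DOCK protein to activate the GTPase RAC and move the membrane around the corpse, while GULP1 is an adaptor for engulfment receptors such as MEGF10. In the brain, microglia use this machinery to clear dying neurons and their debris, and astrocytes are known to use MEGF10 and MERTK.

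The libraries held 20360121 to 23292655 reads assigned to genes, and all 12 microglial markers examined reached 100 CPM in every library. CPM is a gene's count scaled so that the genes of a library sum to 1000000. The libraries differed in ways that touch the results. Replicates 1 to 4 held 14850, 18978, 18431 and 13944 genes with a count. Summed CPM of the 12 microglial markers were 59423, 31767, 32930 and 62369 in replicates 1 to 4, so their level was not even. Summed CPM of 10 immediate early genes were 4237, 52257, 45136 and 4385 in replicates 1 to 4. Transcripts of 6 kb or longer had a median log2 CPM of -0.48 in replicate 4 relative to the mean of the other libraries, against 0.45 for those under 2 kb. In replicates 1 to 3 the same medians were 0.15, 0.33 and 0.20 for the long transcripts and -0.03, -0.22 and -0.11 for the short ones.

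Of the 10 genes, 7 were measured above 3 counts in every library, 6 reached 10 CPM in all of them and 4 reached 100 CPM. Among all 21681 genes with a count, 26.4% reached 10 CPM in every library and 5.28% reached 100 CPM. The median of the 10 genes' mean levels was 103 CPM, beside 3.02 CPM over all genes with a count. The 10 were picked for a pathway known in microglia, so these figures describe their level only. Tyro3, Gulp1 and Megf10 were the 3 genes at or under the 3-count floor in some library, a floor that equals 0.129 to 0.147 CPM.

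**Figure D1:**
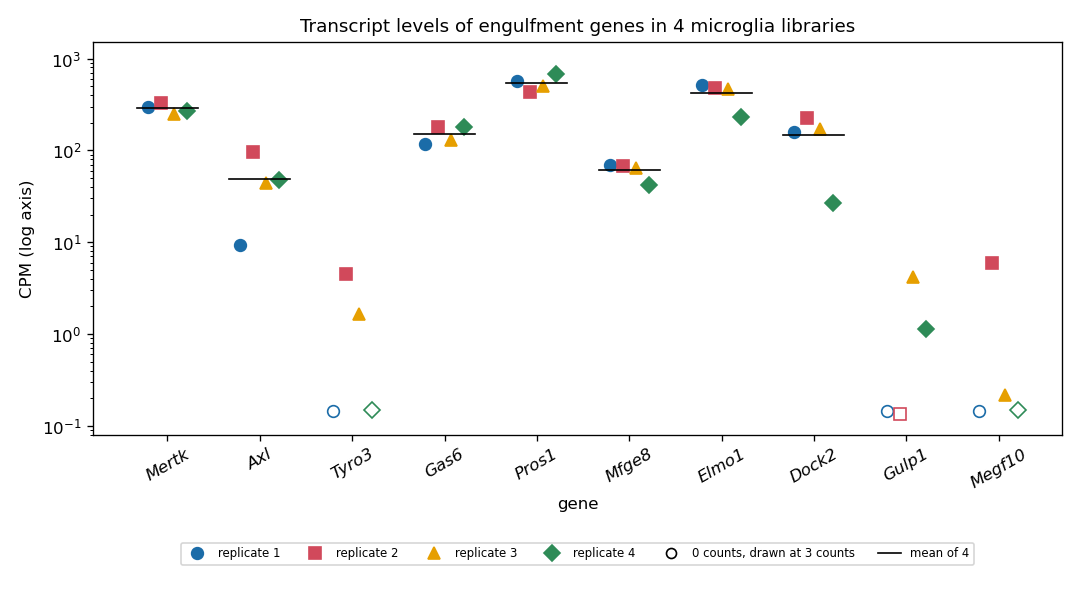
CPM of each gene on a log axis, with 1 symbol per library and a line at the mean of the 4 libraries where no library was at 0. Mertk, Gas6, Pros1 and Mfge8 lie close together across libraries, Axl is low in replicate 1, Elmo1 and Dock2 are low in replicate 4, and open symbols mark libraries of Tyro3, Gulp1 and Megf10 with 0 counts, drawn at 3 counts.

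Mertk was the main TAM receptor transcript of these microglia. It stood at 300.2, 327, 250.5 and 268 CPM in replicates 1 to 4, a mean of 286 ± 33.9 CPM (SD, n = 4), above 97.7% of genes with a count. The 4 libraries lay within 1.30-fold of each other. The SD of its log2 CPM was 0.17, where the median over the 9075 genes tested for spread was 0.58 and 4.54% of them varied less. MERTK is the receptor that tissue macrophages are best known to use for silent clearance of apoptotic cells.

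Axl, the receptor known for its induction in inflamed and disease-associated microglia, was lower and far more uneven. It stood at 9.27, 96.4, 44.1 and 47.1 CPM in replicates 1 to 4, a mean of 49.2 ± 35.8 CPM (SD, n = 4). Replicate 1 was the low library and replicate 2 the high one, 10.4-fold apart, while replicates 3 and 4 were alike. The SD of its log2 CPM was 1.42, more than 90.1% of genes tested. In replicate 1, Axl stood at -2.65 on the log2 scale relative to the mean of the other libraries, and 2.53% of the 1816 genes with a transcript of 4 to 6 kb lay lower there.

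Tyro3, the TAM receptor known mainly from neurons, was barely present. It had 0, 101, 38 and 0 counts in replicates 1 to 4. That is 4.47 CPM in replicate 2 (95% exact binomial interval 3.64 to 5.44) and 1.63 CPM in replicate 3 (1.15 to 2.24). Where the count was 0, the 3-count floor is 0.146 CPM in replicate 1 and 0.147 CPM in replicate 4, and the exact interval reaches 0.179 and 0.181 CPM. These intervals and limits reflect counting error alone, since PCR copies were not collapsed by molecular identifiers. The same 2 libraries that held Tyro3 also held the most genes with a count, 18978 and 18431 against 14850 and 13944. Dock5 and Megf11, also low, likewise had counts only there, whereas Gulp1 had counts in replicates 3 and 4. Those 2 libraries also held the most oligodendrocyte and precursor transcripts. Summed CPM of 8 oligodendrocyte markers were 492, 1805, 1839 and 621, and those of 4 precursor markers were 3.98, 20.9, 7.51 and 0.0491. None of the 4 precursor markers reached 1 CPM in every library, and Pdgfra, a defining one, had 0 counts in replicates 1, 3 and 4. Neuronal markers summed to 12.4, 18.0, 36.7 and 21.4 CPM, with Camk2a the 1 of 7 that reached 1 CPM in each library, and Syt1, Tubb3 and Slc17a7 at 0 counts in replicates 1 and 4. The part of these cells in the Tyro3 counts was not tested, and in bulk RNA fewer cells of a type and less RNA per cell cannot be told apart.

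Levels were compared between genes only within a library and per kb of exon, as the log2 ratio of (count + 0.5) per kb. Mertk exceeded Axl by 5.23, 1.98, 2.72 and 2.73 on this scale in replicates 1 to 4, a mean of 3.16 ± 1.42 (SD, n = 4), or 8.95-fold. Without replicate 1 the mean was 2.47. Over Tyro3, Mertk stood at 6.70 and 7.76 in replicates 2 and 3. In replicates 1 and 4, where Tyro3 had no count, it was at least 2948-fold and 2602-fold higher per kb, taking 3 counts per library as the floor. Axl exceeded Tyro3 by 4.72 and 5.04 in replicates 2 and 3. Per kb, Mertk held 97.4%, 79.1%, 86.5% and 86.9% of the summed TAM receptor level in replicates 1 to 4, and Axl held 2.59%, 20.1%, 13.1% and 13.1%. For 20 gene pairs the log2 ratios were tested by exact permutation of their signs (two-sided), which with 4 libraries cannot give a p below 0.125. Every pair with 1 order in 4 of 4 libraries, Mertk over Axl among them, had that p and an adjusted p of 0.156 (Benjamini-Hochberg over the 20 pairs). Megf10 over Scarf1 is counted there, though both genes had 0 counts in replicates 1 and 4, where exon length alone set the ratio.

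Axl was set beside marker lists whose sums, like Axl, were lowest in replicate 1, a choice made after their values were seen. Immediate early genes, a fast and transient response to stimuli, were low in replicates 1 and 4, whereas Axl was low in replicate 1 only. Border-associated macrophage markers summed to 294, 794, 862 and 441 CPM in replicates 1 to 4, with 7 of 8 reaching 1 CPM in each library. They did not move together. Mrc1 stood at 68.9, 213, 191 and 106 CPM and F13a1 at 13.7, 163, 236 and 101 CPM, both lowest in replicate 1. Lyve1 had 3 counts in replicates 1 and 4. Cd163 and Ms4a7 were highest in replicate 4, at 32.6 and 83.5 CPM, whereas Stab1 was lowest there, at 75.9 CPM. Endothelial markers summed to 95.1, 196, 159 and 123 CPM, with 3 of 8 at 1 CPM in every library and Cdh5 at 0 counts in replicates 1 and 4. Mural and fibroblast markers summed to 21.6, 120, 113 and 163 CPM, with 1 of 8, Vtn, at 1 CPM in every library and Kcnj8 at 0 counts in replicates 1 and 4. The oligodendrocyte and neuronal sums given above and the ependymal and choroid plexus sum, at 442, 902, 901 and 2050 CPM, were also lowest in replicate 1. Other lists did not follow Axl. The neutrophil sum was 1464, 272, 260 and 2358 CPM and the monocyte sum 122, 59.0, 63.7 and 186 CPM. Both, like the microglial sum given above, were lower in replicates 2 and 3 than in replicates 1 and 4. The astrocyte and precursor sums were lowest in replicate 4. The part of these cells in the Axl level was not tested.

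**Figure D2:**
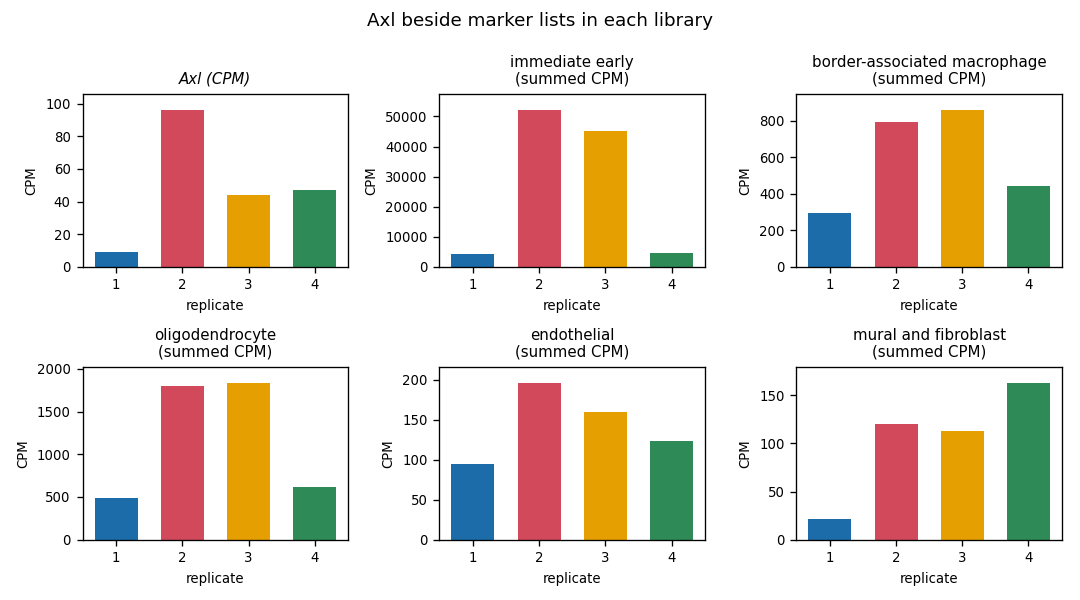
Bars give the CPM of Axl and the summed CPM of 5 marker lists in each library, each panel from 0 on its own scale, with no error bars because a bar is 1 library. Axl at 9.27 CPM in replicate 1 stands beside the lowest border-associated macrophage, oligodendrocyte, endothelial and mural sums, while the immediate early sum is as low in replicate 4, where Axl stood at 47.1 CPM.

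The promoters of the 3 receptors are shown because their transcripts differed widely within 1 receptor family. Each is the 250 bases before the annotated start in RefSeq, build GRCm38.p6, on the gene's own strand. Capitals mark the hexamer GAGGAA, a core that the macrophage factor PU.1 and other ETS factors bind, or its reverse complement.
Mertk, chr2:128698665-128698914, plus strand: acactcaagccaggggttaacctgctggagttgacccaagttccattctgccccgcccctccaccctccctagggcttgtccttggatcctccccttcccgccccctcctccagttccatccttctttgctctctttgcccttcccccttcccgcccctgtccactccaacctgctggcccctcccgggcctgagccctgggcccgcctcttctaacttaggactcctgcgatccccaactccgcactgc
Axl, chr7:25788734-25788983, minus strand: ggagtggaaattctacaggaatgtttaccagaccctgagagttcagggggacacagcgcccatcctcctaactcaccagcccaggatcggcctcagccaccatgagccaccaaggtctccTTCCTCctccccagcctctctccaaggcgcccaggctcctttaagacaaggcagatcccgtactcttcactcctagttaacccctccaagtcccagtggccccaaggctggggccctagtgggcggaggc
Tyro3, chr2:119799264-119799513, plus strand: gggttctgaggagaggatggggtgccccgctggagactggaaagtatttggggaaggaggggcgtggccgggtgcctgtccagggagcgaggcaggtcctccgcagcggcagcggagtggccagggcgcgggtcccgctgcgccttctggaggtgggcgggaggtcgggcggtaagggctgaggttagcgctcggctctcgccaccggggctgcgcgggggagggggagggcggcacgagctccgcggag
The Axl window held 1 match, on the opposite strand, with its leftmost base as printed 130 bases before the start, and the Mertk and Tyro3 windows held none. Over 32851 RefSeq promoter windows of this length, 23.3% held the hexamer on either strand. The AP-1 motif TGANTCA, searched because immediate early genes differed between libraries, was in none of the 3 and in 6.75% of all windows. The Tyro3 window was rich in CpG, with 24 such dinucleotides, against 7 for Mertk, 5 for Axl and a median of 6 over all windows. These are letter matches in a short window, and binding was not measured.

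Both TAM ligands were transcribed by the sorted cells, and Pros1 was the most abundant of the 10 genes. Pros1 encodes protein S, a vitamin K-dependent anticoagulant of plasma that also activates TYRO3 and MERTK. It stood at 567, 431, 501 and 680.3 CPM in replicates 1 to 4, a mean of 545 ± 106 CPM (SD, n = 4). Gas6, the ligand of all 3 receptors and the one that AXL depends on, stood at 118, 178, 128 and 178 CPM, a mean of 150.5 ± 31.9 CPM. Neither gene had a library far from the others, with 1.58-fold between extremes for Pros1 and 1.51-fold for Gas6.

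Per kb, Pros1 exceeded Gas6 in 4 of 4 libraries, the log2 ratio of Gas6 over Pros1 being -1.58, -0.59, -1.28 and -1.25. Gas6 made up 25.0%, 39.8%, 29.1% and 29.6% of the summed ligand level in replicates 1 to 4. Pros1 exceeded Mertk by 1.00, 0.48, 1.08 and 1.43 on the log2 scale in replicates 1 to 4. Mertk and Gas6 could not be ordered, at 0.58, 0.11, 0.20 and -0.17 in replicates 1 to 4, a mean of 0.18 ± 0.31. Axl stood below Gas6 in 4 of 4 libraries, at -2.98 ± 1.19.

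The enzymes that these ligands and receptors depend on were present. Ggcx, the carboxylase that vitamin K-dependent proteins need, stood at 37.6 ± 10.8 CPM (SD, n = 4), and Vkorc1, which recycles vitamin K, at 62.2 ± 9.01 CPM. Vkorc1l1, its relative, stood at 13.2, 15.1, 7.73 and 0.0982 CPM in replicates 1 to 4, the last being 2 counts. Of the proteases known to shed MERTK and AXL from the surface, Adam10 stood at 387 ± 51.0 and Adam17 at 248 ± 41.7 CPM. Per kb, Adam17 over Adam10 gave a log2 ratio of -1.19 ± 0.33, negative in 4 of 4 libraries.

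Mfge8, the milk fat globule protein that bridges phosphatidylserine to integrins, stood at 69.7, 67.1, 64.8 and 41.8 CPM in replicates 1 to 4, a mean of 60.9 ± 12.9 CPM (SD, n = 4). Replicates 1 to 3 were alike and replicate 4 was lower. Per kb, Mfge8 stood below Gas6 at a log2 ratio of -2.19 ± 0.59, in 4 of 4 libraries. By the longest transcript of each gene that value was -1.18, since the union of Mfge8 exons spans 4694 bases and its longest transcript 2330. Mfge8 exceeded its relative Edil3 by 5.17, 4.97, 6.53 and 2.15 on the same scale. Edil3 itself was highest in replicate 4, at 27.4 CPM against 2.02 to 6.20 CPM in the others.

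Astrocytes are a known source of Mfge8 in brain. The 9 astrocyte markers summed to 359, 491, 559 and 270 CPM in replicates 1 to 4, and 7 of 9 reached 1 CPM in every library. Aldh1l1, a defining one, had 0 counts in replicates 1, 3 and 4, while Slc1a3 gave 222, 272, 276 and 57.5 CPM. The sum and Mfge8 were both lowest in replicate 4, but the markers did not move together there. Slc1a3 and Atp1b2 were lowest in replicate 4, whereas Gja1, Aqp4 and Slc4a4 were highest in it, at 72.5, 19.1 and 26.3 CPM. The part of astrocytes in the Mfge8 level was not tested.

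The integrin chains that take up MFG-E8 were transcribed unevenly. Itgb5 stood at 434 ± 91.7 CPM (SD, n = 4), Itgav at 131 ± 30.6 CPM and Itgb3 at 74.2, 32.4, 11.7 and 24.8 CPM in replicates 1 to 4. Per kb, Itgb5 exceeded Itgb3 by 3.46, 4.42, 6.19 and 4.39 on the log2 scale, a mean of 4.61 ± 1.14, or 24.5-fold.

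Elmo1 and Dock2, which form the RAC-activating pair of blood-derived cells, were abundant in 3 libraries and low in replicate 4. Elmo1 stood at 510.2, 478, 464 and 232 CPM in replicates 1 to 4, a mean of 421 ± 128 CPM (SD, n = 4). Dock2 stood at 157, 227, 171 and 26.8 CPM, a mean of 146 ± 84.9 CPM, and 185 CPM without replicate 4. Dock2 spanned 8.50-fold and Elmo1 2.20-fold between their extreme libraries. In replicate 4, Elmo1 stood at -1.06 and Dock2 at -2.77 on the log2 scale relative to the mean of the other libraries.

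Replicate 4 was also the library with the fewest genes and the lowest level of long transcripts. The longest transcripts are 5.46 kb for Elmo1 and 6.41 kb for Dock2. The median gene of 4 to 6 kb stood at -0.12 there and the median gene of 6 kb or more at -0.48. Elmo1 was lower than its bin's median, with 25.6% of the 1816 genes in that bin lower still, and Dock2 had 11.3% of 998 genes lower. Other long DOCK genes did not all share the depth of Dock2. Dock11 stood at -2.29, but Dock4, Dock8 and Dock10 stood at -0.73, -0.63 and -0.56. The part of transcript length or RNA quality in the 2 low values was not tested.

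**Figure D3:**
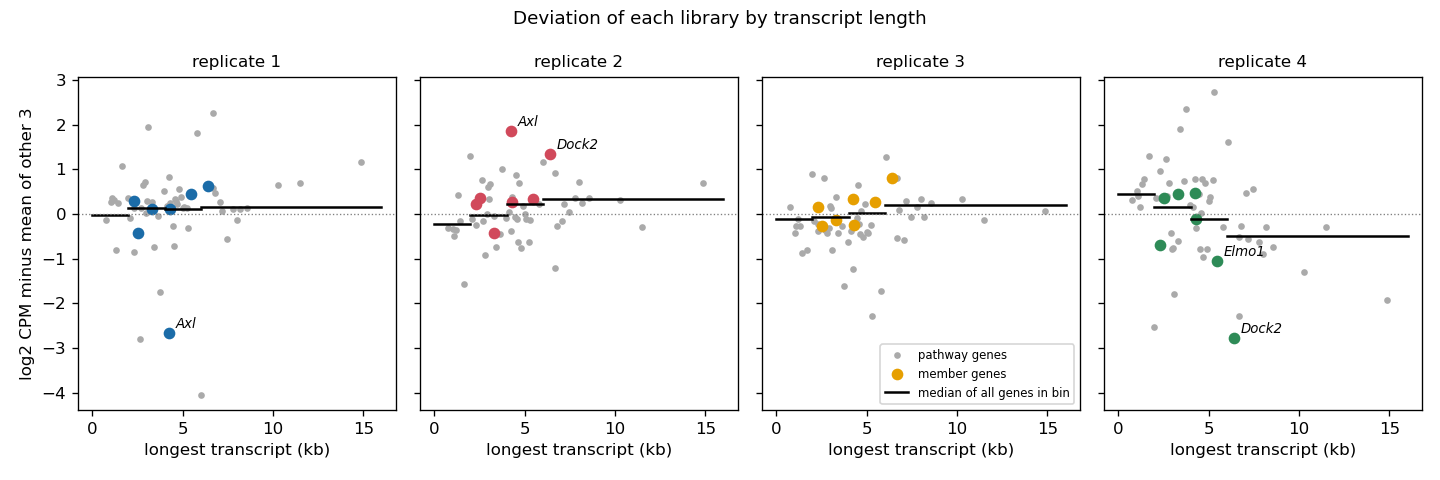
For each library, the log2 CPM of a gene minus its mean in the other 3 libraries, against the length of its longest annotated transcript in kb, with the 7 member genes measured in every library in colour and other genes of the pathway lists in grey. Black lines give the median of all genes tested in bins of under 2 kb, 2 to 4, 4 to 6 and 6 kb or more, and Dock2 and Elmo1 lie below those lines in replicate 4, as Axl does in replicate 1.

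Elmo1 was the main ELMO transcript. Elmo2 stood at 56.3, 71.7, 51.6 and 30.3 CPM in replicates 1 to 4, and per kb Elmo1 exceeded it by 2.26, 1.82, 2.25 and 2.02 on the log2 scale, a mean of 2.09 ± 0.21 (SD, n = 4). Both genes were lowest in replicate 4. Elmo3 had 0 counts in replicates 1 and 4, where Elmo1 was at least 971-fold and 436-fold higher per kb by the 3-count floor, and 0.576 and 0.0429 CPM in replicates 2 and 3.

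Among DOCK genes the order was less clear. Dock2 exceeded Dock1, the broadly expressed family member, by 1.80, 2.90 and 2.22 on the log2 scale per kb in replicates 1 to 3 and stood at -0.19 in replicate 4. Dock1 itself was even, at 36.8, 24.9, 30.1 and 24.9 CPM. Dock2 and Dock8 could not be ordered, at 0.11, 0.47, 0.20 and -1.89 per kb. The mean of -0.28 ± 1.08 became 0.26 without replicate 4. Dock5 had 0 counts in replicates 1 and 4 and 0.221 and 0.601 CPM in the others. Elmo1 over Dock2 was 1.56, 0.93, 1.30 and 2.97 on the same scale in replicates 1 to 4.

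The Dock2 promoter is shown because its transcript was the most uneven of the 7 genes relative to genes of its level, and Dock2 is known as a gene of blood cells. It is printed as for the receptors, with GAGGAA or its reverse complement in capitals.
Dock2, chr11:34783906-34784155, minus strand: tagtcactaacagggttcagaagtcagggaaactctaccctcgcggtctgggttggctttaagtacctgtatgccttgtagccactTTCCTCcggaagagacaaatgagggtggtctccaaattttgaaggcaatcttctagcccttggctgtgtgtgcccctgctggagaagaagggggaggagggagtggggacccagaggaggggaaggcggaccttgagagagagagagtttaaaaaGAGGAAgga
The window held 2 matches, with leftmost bases 164 and 9 bases before the start, on the opposite and the printed strand. Promoter windows were read for 9 member genes, and none was read for Megf10. Of the 9, 3 held a match, the others being Axl and Mfge8. Over all 32851 windows the share was 23.3%, and a count this small does not set the members apart from it.

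Gulp1 and Megf10 were low, with counts in some libraries and none in others. Gulp1 had 0, 0, 97 and 23 counts in replicates 1 to 4, or 4.16 CPM in replicate 3 (95% exact binomial interval 3.38 to 5.08) and 1.13 CPM in replicate 4 (0.716 to 1.70). Megf10 had 0, 135, 5 and 0 counts, or 5.98 CPM in replicate 2 (5.01 to 7.08) and 0.215 CPM in replicate 3 (0.0697 to 0.501). The 2 genes were not seen together except in replicate 3. In replicate 1, where neither had a count, the 3-count floor is 0.146 CPM. The astrocyte marker sum was highest in replicates 2 and 3, while Gulp1 had 0 counts in replicate 2 and Megf10 had 5 in replicate 3. The precursor sum, at 3.98, 20.9, 7.51 and 0.0491 CPM in replicates 1 to 4, was highest in replicate 2, as Megf10 was. The part of either cell type in these counts was not tested. The MEGF10 relatives Megf11 and Scarf1 were no higher than 0.576 and 5.45 CPM in any library, so no order among the 3 is given.

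Set in order of level per kb, the 7 genes measured in every library ran Pros1, Mertk, Gas6, Elmo1, Mfge8, Dock2 and Axl. Of the 6 neighbouring pairs in that order, 3 held it in 4 of 4 libraries. These were Pros1 over Mertk at 1.00 ± 0.39, Gas6 over Elmo1 at 0.86 ± 0.76 and Elmo1 over Mfge8 at 1.33 ± 0.19 on the log2 scale (SD, n = 4). Mertk and Gas6, Mfge8 and Dock2 (0.36 ± 1.07), and Dock2 and Axl (0.43 ± 2.02) did not differ beyond their spread. The place of Elmo1 rests on the length used, since its exon union spans 12580 bases and its longest transcript 5464. With the longest transcript Elmo1 came directly after Pros1. Pros1 had the highest mean under each of 3 treatments of length, but without length correction it exceeded Elmo1 in 3 of 4 libraries, at 0.42 ± 0.77, which is not beyond the spread.

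**Figure D4:**
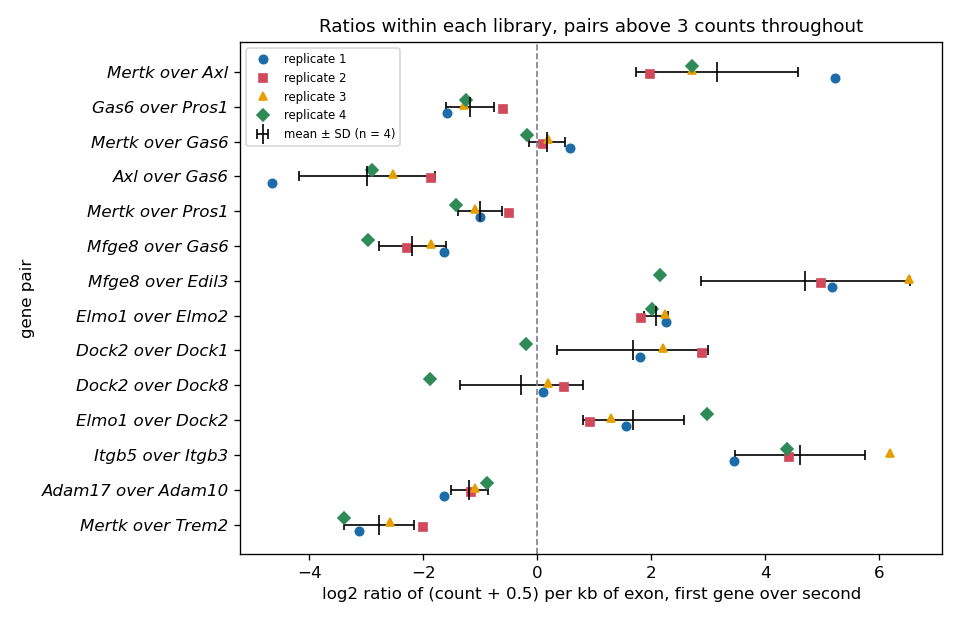
Log2 ratios of (count + 0.5) per kb of exon within each library for the 14 gene pairs whose genes both exceeded 3 counts in every library, with 1 symbol per library and bars for the mean ± SD (n = 4). Mertk lies above Axl and below Pros1 and Trem2 in all 4 libraries, while Dock2 over Dock1 and Dock2 over Dock8 cross 0 in replicate 4.

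The rest of the pathway was read from lists chosen by role. Over all genes with a count, 26.4% reached 10 CPM in every library, and over the 9075 genes tested for spread 63.2% did. The list counts below describe level only. Of 22 other receptors for phosphatidylserine or apoptotic cells, 10 reached 10 CPM in every library. Per kb the highest were Trem2, a lipid receptor of microglia, Havcr2 (TIM-3), Itgb5 and the inhibitory receptor Cd300a. Havcr2 stood at 392 ± 68.2 CPM and Cd300a at 288 ± 99.7 CPM (SD, n = 4), and reads could be shared between near-identical Cd300 genes. Mertk over Trem2 gave a log2 ratio of -2.78 ± 0.61 per kb, negative in 4 of 4 libraries. The TIM genes Timd2 and Havcr1 had 0 counts in every library, and Timd4 had 0 in replicates 1 and 4, with 3.72 and 5.19 CPM in replicates 2 and 3.

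Of 21 other genes of the engulfment machinery, 15 reached 10 CPM in every library, the same number without any 1 library. The GTPase genes Cdc42 and Rac1 stood at 957 ± 124 and 611 ± 78.0 CPM (SD, n = 4). Rhog, which acts upstream of ELMO, stood at 113 ± 37.3 CPM and the exchange factor Vav1 at 251 ± 69.6 CPM. Rac2, the RAC of blood cells, stood at 155 ± 36.2 CPM. In the list of 10 other bridging molecules, 5 reached 10 CPM in every library, the highest per kb being the 3 C1q chain genes, which opsonise dying cells, and Anxa1. Anxa1 gave 68.8, 17.4, 25.8 and 76.5 CPM in replicates 1 to 4. The 8 neutrophil markers, 7 of which reached 1 CPM in each library, were, like Anxa1, highest in replicates 1 and 4 in sum, and their part in the Anxa1 level was not tested. The MERTK ligand Lgals3 stood at 23.6 ± 8.16 CPM, and Tub and Tulp1, which encode other reported MERTK ligands, had 0 counts in every library.

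Genes that act before and after engulfment were also read. Of 10 genes of phosphatidylserine exposure, 4 reached 10 CPM in every library. Tmem30a, the partner subunit of lipid flippases, stood at 384 ± 114 CPM (SD, n = 4), Atp8a1 at 141 ± 16.7, Ano6 at 55.1 ± 13.4 and Plscr3 at 53.5 ± 20.8 CPM. Of 5 brakes on engulfment, 4 reached 10 CPM. Sirpa, the receptor of the "do not eat me" signal CD47, stood at 1364 ± 329 CPM, its phosphatase partner Ptpn6 at 441 ± 66.7, Cd47 at 256 ± 80.5 and Ptpn11 at 38.1 ± 9.12 CPM. Of 7 genes that handle lipid after engulfment, 2 reached 10 CPM in every library, or 28.6%, near the 26.4% over all genes with a count. These were Abca1 at 166 ± 60.0 CPM and the liver X receptor gene Nr1h2 at 70.8 ± 41.1 CPM. Both were lowest in replicate 4, at 79.1 and 15.1 CPM. Rxra, the partner of the liver X receptors, stood at 0.196 CPM in replicate 4, or 4 counts, and at 25.7 CPM in replicate 2. Abca7 gave 31.3, 5.14, 7.26 and 7.37 CPM in replicates 1 to 4.

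Spread between libraries was then tested gene by gene across the whole table with edgeR, setting each gene's quasi-likelihood dispersion against the trend at its level. At an adjusted p under 0.05, 0% of the 9075 genes tested were called, so none of the 7 member genes tested was called, and DESeq2 marked 0 genes as dispersion outliers. Data were simulated with a common spread for all genes, although real genes differed in theirs. At the coefficient of variation fitted to these libraries, 0.535, the edgeR test at this threshold called 0% of genes changed 4-fold in 2 of 4 libraries. It called 2% of those changed 16-fold. At a coefficient of 0.2 it called 20% and 100% of them, in that order. The absence of calls therefore does not show that genes were even. At an unadjusted p under 0.05, 390 genes or 4.3% passed in the edgeR test, Dock2 being the member among them. In the edgeR fit Dock2 lay 3.35 above the trend on the log2 scale and Axl 2.42 above it, each with an adjusted p of 0.94. Elmo1 lay 1.19 above it (edgeR, adjusted p = 0.95). Without replicate 4, Dock2 lay 0.14 above the trend and no longer passed unadjusted, while Axl lay 4.12 above it and did (edgeR, adjusted p = 0.99 and 0.94). Axl also passed unadjusted without replicate 3, at 2.54 above the trend. Mertk, Pros1, Mfge8 and Gas6 lay below it, at -1.77, -1.42, -0.85 and -0.68, with edgeR adjusted p of 0.996 to 0.999. Tyro3, Gulp1 and Megf10 were left out by the filter on low counts. Among the genes tested on the other 7 pathway lists, edgeR called 0, and 0 passed at an unadjusted p under 0.05. On the marker lists it also called 0, but all 10 immediate early genes passed unadjusted. So did 5 of 7 neutrophil, 3 of 7 astrocyte, 3 of 8 oligodendrocyte, 2 of 7 border-associated macrophage and 1 of 5 endothelial markers tested. The microglial, monocyte, neuronal, mural and ependymal lists had 0, and no precursor marker was tested.

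The profiles most like those of Mertk and Axl were sought among the genes tested, by the root-mean-square distance between log2 CPM centred over the 4 libraries. Nearest to Mertk were Dnajc18, Map3k1 and Ap3m1, at distances of 0.0180, 0.0182 and 0.0230. Within 0.2 of Mertk lay 503 genes, 5.54% of those tested. Nearest to Axl were Fbxo32, Homer3 and C1rl, at 0.0813, 0.148 and 0.151, and 6 genes in all lay within 0.2. Fbxo32 stood at 2.33, 24.8, 11.9 and 10.9 CPM in replicates 1 to 4.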

How the data were processed

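Each library's file, as the authors deposited it, holds unnormalised read counts by gene symbol. Per the submitters' processing notes the build was GRCm39 and the tools HTSeq 0.11.2, STAR 2.7.10a and SAMtools 1.16.1. Annotation, strand setting and counting filters were not given in the sources used here. Genes that overlap member exons were Tmem255b (Gas6), Gm32036 (Elmo1) and 4930403D09Rik (Dock2), each on the opposite strand. They held at most 1, 107 and 0 counts in a library. Rows at the end of each file that name no gene took 20.8% ± 1.28 (SD, n = 4) of the listed reads and stayed out of all totals.

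CPM used the reads assigned to genes. Exon unions and transcript lengths came from GENCODE on GRCm38 by gene symbol, which covered all 182 listed genes. Promoter sequences came from RefSeq on GRCm38.p6. Member genes, gene lists and tests were chosen with earlier results of these data known. Genes named are the 10 members, both genes of 20 pairs, the 4 highest per kb of each pathway list and any gene there called variable, the 2 highest of each marker list, and 3 nearest profiles each for Mertk and Axl. Marker lists are given mostly by their sums, and any gene outside this rule was named after its values were seen.

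Spread was tested with edgeR 4.0.16 in R 4.3.3 by an intercept-only quasi-likelihood fit (filterByExpr, minimum count 10, TMM) and an upper-tail F test with Benjamini-Hochberg adjustment. The code was tested on simulated data. DESeq2 1.42.0 was the other tool. Log2 ratios were tested by exact permutation of their signs, two-sided. Other steps ran in Python 3.11.15 (scipy 1.17.1, pandas 2.3.3, numpy 2.4.6), and figures were drawn with matplotlib 3.10.9. Alternatives changed the scaling, length, pseudocount (2), filter, tool and libraries.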

Additional observations from a re-analysis of the deposited data

Results flagged for a closer look

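Elmo1 and Megf10 each had 1 library far from the others. Elmo1 stood at 232 CPM in replicate 4, against 464 to 510.2 CPM in the other libraries. Megf10 stood at 5.98 CPM in replicate 2, against 0 to 0.215 CPM in the others. For each, the gap to the nearest library exceeded the 95% critical share of the gene's whole range in Dixon's test. All 10 genes were examined this way, and chance alone marks about 1 in 20 groups. Replicate 4 also had the lowest level of long transcripts and the fewest genes with a count, whose part in the Elmo1 value was not tested.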

How the results depend on the processing

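Other scalings moved every mean CPM of the 10 genes by less than 1 SD between libraries. For 3 genes 1 library held most counts. The mean of Megf10 was 1.55 CPM and 0.0716 without replicate 2, that of Tyro3 1.53 and 0.544 without replicate 2, and that of Gulp1 1.32 and 0.377 without replicate 3. Of 140 alternative pair ratios, 138 kept their direction. The 140 include Megf10 over Megf11 and Megf10 over Scarf1, where both genes had 0 counts in replicates 1 and 4. There the ratio per kb reflected exon length alone, so their direction is not informative. Dock2 over Dock8 changed sign, at 0.19 with the longest transcript length, and it ranged from -0.53 to 0.26 when 1 library was left out. Without length correction 1 of the neighbouring pairs in the order of levels held in 4 of 4 libraries, against 3 per kb of exon union. Mertk over Axl ranged from 2.47 to 3.56 with 1 library left out, and Mfge8 over Gas6 was -1.31 without length correction. The edgeR test called 0 genes under every filter, scaling and left-out library tried, with 380 to 483 genes at an unadjusted p under 0.05. This says nothing about stability, since in simulation at the common spread of these libraries the test could hardly call a gene. The adjusted p ranged from 0.83 to 0.97 for Axl and from 0.83 to 0.99 for Dock2. Leaving out libraries when counting pathway genes was added after the data were seen, and the 32 counts stayed within 1.5 times. No paired analysis was possible because the series as analysed has 1 group. With 4 libraries the pair test cannot reach 0.05, and levels under 3 counts were not detectable.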
